A study of Homo sapiens with 2 samples.

Results

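The genes described here were 10: PARP1, PARP2, PARP3, PARP4, PARP8, PARP9, PARP10, PARP12 and PARP14 of the poly(ADP-ribose) polymerase family, and DTX3L, the partner of PARP9. They were chosen by name, as every probe of the array whose gene name was one of these, which gave 18 probes of the 41000 on the array and 10 of its 30238 gene names. The arrays compared A2780CBN and A2780CBNDXL, both selected from the ovarian carcinoma cell line A2780, with the control line A2780CC. A2780CBN had been selected with carboplatin up to 22.2 µM, and A2780CBNDXL with carboplatin and docetaxel raised together, for which the labels and the study's text give different terminal doses, so that none is stated here. No engineered gene change is given for any of these lines, and the control A2780CC was cultured alongside each resistant line without the drugs, so that there were 4 RNA samples in all. RNA of 3 isolations was pooled for each sample, and 4 arrays of 2 colours repeated each pair of samples. Arrays 1 and 3 carried the forward labelling and arrays 2 and 4 the reverse labelling, with arrays 1 and 2 on slide 1 and arrays 3 and 4 on slide 2. Each line was therefore 1 sample, the SD given below covers labelling and hybridization only, and no p-value is given.

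The share of spots well above background ran from 59.8% to 67.5% per array channel, and saturation was not flagged for any spot. The epithelial markers KRT8, KRT18 and PAX8 were well above background in all 16 channels, whereas KRT7, WT1 and MUC16 were not above it in any. PTPRC, CD3D, LYZ, CSF1R, PECAM1 and CDH5 were not above background in any channel. Of the fibroblast markers, COL1A1, COL3A1 and DCN were well above background in all 16 channels. In RNA of a whole culture, fewer cells that express a gene and less RNA per cell cannot be told apart.

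Poly(ADP-ribose) polymerases transfer ADP-ribose from NAD to proteins or nucleic acids. PARP1, PARP2 and PARP3 are activated by DNA breaks and help to recruit repair factors, while most other members attach single ADP-ribose units and act in stress signalling, membrane traffic or antiviral defence. PARP9 carries macrodomains that bind ADP-ribose and forms a complex with DTX3L, an E3 ubiquitin ligase. PARP9, DTX3L, PARP10, PARP12 and PARP14 are known as interferon-stimulated genes in many cell types. PARP9 and DTX3L lie head to head on chromosome 3, next to PARP15 and PARP14.

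The array reports each gene through probes of 60 bases, and the probes shown here are those of the 5 genes whose ratio passed the 2-fold limit in a line, taking for DTX3L and PARP3 the dimmer of their probes. Each of these has a reading frame without a stop codon, the coordinates are on NCBI36 as in the files, and all bases are in lower case because the whole run hybridizes. The PARP9 probe A_23_P69383 lies on the minus strand at chr3:123729987-123730046, the DTX3L probe A_23_P347040 on the plus strand at chr3:123772107-123772166 and the PARP14 probe A_24_P161018 on the plus strand at chr3:123920134-123920193. The PARP3 probe A_24_P402779 spans 286 bases at chr3:51954954-51955239 and the PARP8 probe A_23_P121898 spans 942 bases at chr5:50165601-50166542, both on the plus strand, so that these probes cross an exon junction.
PARP9 probe: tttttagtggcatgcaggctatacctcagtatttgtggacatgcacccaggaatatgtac
DTX3L probe: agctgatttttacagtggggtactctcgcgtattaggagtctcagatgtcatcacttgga
PARP14 probe: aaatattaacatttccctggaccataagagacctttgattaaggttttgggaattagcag
PARP3 probe: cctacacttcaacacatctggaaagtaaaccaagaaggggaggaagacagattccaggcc
PARP8 probe: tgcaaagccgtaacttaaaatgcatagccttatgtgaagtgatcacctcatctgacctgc

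The promoters of PARP9, DTX3L, PARP14 and PARP12 are shown because they hold the letters of an interferon-stimulated response element (GAAA, any 2 bases, then GAAA) on one strand or the other, and that of PARP3 because its ratio was high in both lines and its window does not hold them. They are RefSeq sequences on GRCh38.p14, from 250 bases before to 50 bases after the start of the gene, and the capitals mark the match. Of the 10 genes, 8 had a window in the reference table, PARP4 and PARP10 being the others, and 4 of these 8 genes held the motif in a window, against 4.38% of the 27305 genes of the table, on either strand. The DTX3L window is chr3:122564088-122564387 on the plus strand, and that of PARP9 is chr3:122564251-122564550 on the minus strand. These windows share 137 bases, and the match in both is the same place, chr3:122564332-122564341, read from opposite strands. A further PARP9 window, at chr3:122564735-122565034, held no match. The PARP14 window is chr3:122680589-122680888 on the plus strand, the PARP12 window chr7:140062902-140063201 on the minus strand and the PARP3 window chr3:51942113-51942412 on the plus strand. The letters of a gamma-activated site (TTC, any 3 bases, then GAA), searched on both strands, were found in the PARP14 and PARP2 windows and in those of 9.38% of all genes.
DTX3L promoter: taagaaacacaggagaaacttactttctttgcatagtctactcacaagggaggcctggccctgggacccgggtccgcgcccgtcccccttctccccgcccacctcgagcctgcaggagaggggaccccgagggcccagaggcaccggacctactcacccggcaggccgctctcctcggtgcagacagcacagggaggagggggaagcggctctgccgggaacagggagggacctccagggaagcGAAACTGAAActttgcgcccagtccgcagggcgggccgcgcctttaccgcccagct
PARP9 promoter: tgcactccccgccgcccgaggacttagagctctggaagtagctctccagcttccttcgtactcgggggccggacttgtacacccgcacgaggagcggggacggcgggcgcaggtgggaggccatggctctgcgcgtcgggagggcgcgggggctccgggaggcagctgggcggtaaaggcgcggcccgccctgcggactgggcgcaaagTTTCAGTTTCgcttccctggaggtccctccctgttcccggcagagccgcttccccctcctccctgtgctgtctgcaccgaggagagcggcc
PARP14 promoter: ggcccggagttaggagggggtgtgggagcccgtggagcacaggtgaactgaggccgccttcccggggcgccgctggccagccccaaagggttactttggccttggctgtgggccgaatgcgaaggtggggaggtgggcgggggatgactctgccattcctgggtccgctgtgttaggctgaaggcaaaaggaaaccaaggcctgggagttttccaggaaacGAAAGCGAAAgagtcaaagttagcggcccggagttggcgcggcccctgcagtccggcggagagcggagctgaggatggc
PARP12 promoter: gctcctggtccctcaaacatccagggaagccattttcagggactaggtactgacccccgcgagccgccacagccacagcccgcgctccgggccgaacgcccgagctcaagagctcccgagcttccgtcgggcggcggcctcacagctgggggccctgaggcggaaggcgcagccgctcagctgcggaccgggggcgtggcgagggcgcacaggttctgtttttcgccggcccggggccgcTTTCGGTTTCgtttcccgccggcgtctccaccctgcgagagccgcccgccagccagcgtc
PARP3 promoter: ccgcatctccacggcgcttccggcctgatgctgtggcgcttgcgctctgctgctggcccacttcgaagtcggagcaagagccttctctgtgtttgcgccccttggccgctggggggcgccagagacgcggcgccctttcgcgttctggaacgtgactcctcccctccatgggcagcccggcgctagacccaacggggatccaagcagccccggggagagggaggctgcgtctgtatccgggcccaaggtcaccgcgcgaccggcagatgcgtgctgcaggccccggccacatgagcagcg

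In A2780CBN, PARP9, DTX3L, PARP14 and PARP3 were higher than in the control and none of the 10 genes was lower. A gene was called when the ratio averaged 1 or more in size on the log2 scale, with 1 sign on all 4 arrays, and it was tested when its brightest probe was well above background in a channel on all 4. Of the 8 members tested in A2780CBN, 4 were called higher, against 8% called higher, 4.55% called lower and 12.6% called in either direction of the 17951 genes tested on the array. In A2780CBNDXL 9 members were tested, and PARP3 was called higher while PARP8 and PARP14 were called lower, against 7.7% called higher, 9.2% called lower and 16.9% called in either direction of the 17115 genes tested. The median log2 ratio of the members tested was 1.42 in A2780CBN and -0.11 in A2780CBNDXL, beside -0.06 and 0.04 over all genes tested. After normexp background correction and loess in place of the processed intensities, DTX3L was no longer called in A2780CBN, and PARP8 was the 1 member called in A2780CBNDXL. The log2 ratios in A2780CBN were then 2.33 for PARP9, 1.52 for PARP14, 0.92 for DTX3L and 1.57 for PARP3. Those in A2780CBNDXL were 0.97 for PARP3, -0.56 for PARP14 and -1.28 for PARP8.

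**Figure D1:**
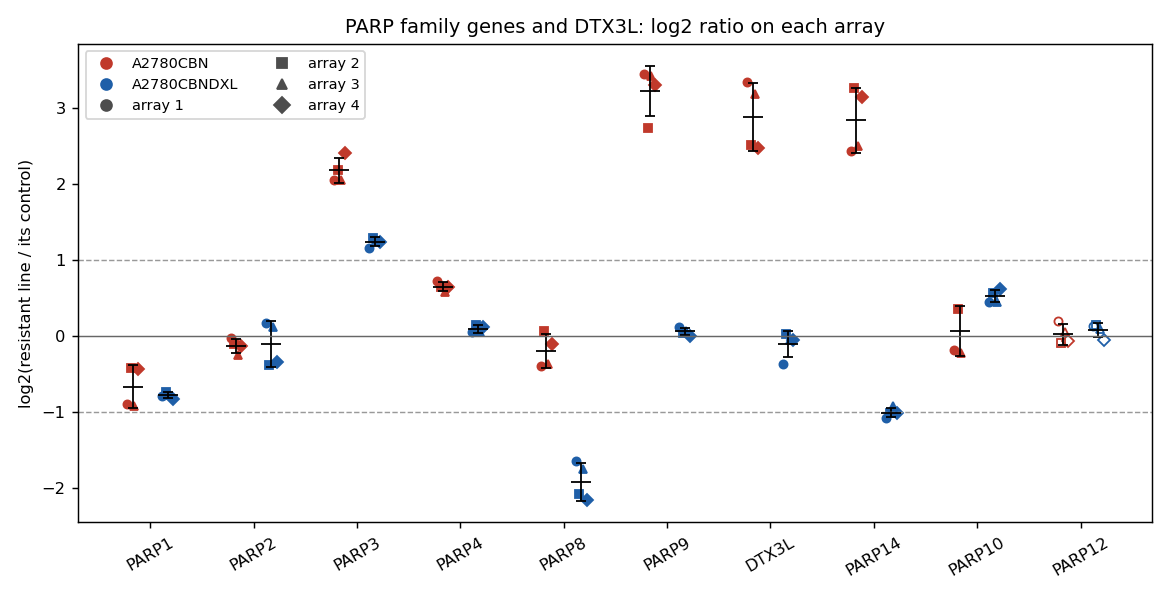
Log2 ratio of resistant line over its control for each of the 10 genes on each of 4 arrays, with the mean and SD over arrays in black, and dashed lines at the 2-fold limits. PARP9, DTX3L and PARP14 lie between 2.43 and 3.45 in A2780CBN and at or below 0.12 in A2780CBNDXL, PARP3 is above 1 in both lines, and the open symbols of PARP12 were not well above background.

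PARP9 gave processed intensities of 2810, 2650, 2380 and 2254 in A2780CBN on arrays 1 to 4. Its control gave 257, 397, 220 and 227 on the same arrays. The resistant line was far above the control on every array, with no overlap, and the log2 ratios were 3.45, 2.74, 3.43 and 3.31. Their mean was 3.23 ± 0.33 (SD, n = 4 arrays), a 9.4-fold difference, with 3.09 on slide 1 and 3.37 on slide 2. In A2780CBNDXL the same probe gave 868, 824, 674 and 543, and its control 797, 800, 643 and 543. The line and the control overlapped there, and the log2 ratio was 0.06 ± 0.05. The study itself selected PARP9 from these arrays, so that its ratio in A2780CBN is a description of a chosen gene.

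DTX3L, the ubiquitin ligase that pairs with PARP9, was measured by 2 probes that both gave a high ratio in A2780CBN. The brighter probe, A_24_P941912, gave 499, 431, 360 and 361 in A2780CBN and 49.1, 75.0, 39.6 and 65.1 in the control. These values did not overlap, and the mean log2 ratio was 2.88 ± 0.45, or 7.37-fold. In A2780CBNDXL this probe gave 91.7, 135, 118 and 82.4 beside 118, 132, 122 and 85.3 in the control, which overlapped, with a log2 ratio of -0.11 ± 0.17. The other probe, A_23_P347040, had log2 ratios of 2.25, 2.44, 2.05 and 3.29 in A2780CBN. It was lower than the control on all 4 arrays of A2780CBNDXL, at -0.74, -0.65, -0.23 and -0.67. The probes thus had 1 direction in A2780CBN, and in A2780CBNDXL neither reached the 2-fold limit.

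PARP14, a large macrodomain protein that attaches single ADP-ribose units, was higher in A2780CBN and lower in A2780CBNDXL than the respective control. Its brightest probe, A_24_P161018, gave 1038, 1162, 939 and 1203 in A2780CBN and 192, 121, 166 and 135 in the control. The groups did not overlap, and the mean log2 ratio was 2.84 ± 0.43, or 7.14-fold. In A2780CBNDXL it gave 165, 255, 220 and 217, all below the 349, 515, 420 and 439 of the control. The mean log2 ratio there was -1.01 ± 0.06, which lies at the limit, and without array 1 it was -0.97 and no longer called. The probe A_32_P56759 had a mean of 2.73 ± 0.36 in A2780CBN and -0.91 ± 0.72 in A2780CBNDXL, and kept its sign across the arrays of each line. For A_24_P920398 the control of A2780CBN stayed near background throughout, and the line was at least 2.57-fold higher. The probe A_23_P57983, downstream of A_24_P161018 on the genome, had no channel well above background. A ratio above 0 on all arrays of A2780CBN and below 0 on all arrays of A2780CBNDXL was found for 7.56% of the 16130 genes tested in both lines, and the reverse for 6.68%.

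PARP12 and PARP10 are also known as interferon-stimulated members, and neither was called in either line. The PARP12 probe A_23_P111804, whose gene has the motif in its promoter window, was between 4.64 and 9.47 in intensity in every channel and never well above background. For PARP10, which attaches single ADP-ribose units, the probe A_23_P84762 was bright, at 64079, 90055 and 128373 in A2780CBN and 73154, 70279 and 150130 in the control on arrays 1 to 3. Its spot on array 4 was left out as an outlier, so the gene was not tested in A2780CBN. In A2780CBNDXL it was above the control on all 4 arrays, with a log2 ratio of 0.52 ± 0.08. This probe is 78.3% G and C. The dimmer probe A_24_P340853 gave log2 ratios of 0.44 ± 0.39 for A2780CBN and 0.30 ± 0.24 for A2780CBNDXL.

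Among the members that respond to DNA breaks, PARP3 was higher in both lines, PARP1 was lower by less than 2-fold in both, and PARP2 differed from its controls by 1.09-fold and 1.08-fold. The brightest PARP3 probe, A_23_P92073, gave 2166, 2178, 2119 and 2111 in A2780CBN and 518, 477, 509 and 397 in its control. In A2780CBNDXL it gave 1279, 1644, 1612 and 1583, with 572, 674, 669 and 669 in the control. The values did not overlap in either line, and the log2 ratios were 2.18 ± 0.16, or 4.53-fold, and 1.24 ± 0.06, or 2.36-fold. The junction probe A_24_P402779 was called higher too, at 2.26 ± 0.56 and 1.72 ± 0.47.

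PARP1, the most abundant enzyme of the family in most cells, was measured by 1 probe printed in 10 spots per array. It gave 16903, 18487, 15763 and 18877 in A2780CBN and 31549, 24754, 30038 and 25388 in the control. In A2780CBNDXL it gave 17268, 23145, 22159 and 20247 beside 30062, 38664, 37930 and 35901. All 4 values of each line lay below all 4 of its control, with log2 ratios of -0.67 ± 0.28 and -0.78 ± 0.04. At a 1.5-fold limit PARP1 would be called lower in both lines, as 12.5% and 16.9% of all genes tested are. The PARP1 ratio in A2780CBN was -0.92 in the forward and -0.42 in the reverse labelling.

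PARP2, which shares the response to single-strand breaks with PARP1, had log2 ratios of -0.13 ± 0.09 in A2780CBN and -0.11 ± 0.30 in A2780CBNDXL. Its ratio was below 0 on all 4 arrays of A2780CBN and on the reverse labelled arrays of A2780CBNDXL.

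PARP8, an enzyme that attaches single ADP-ribose units, was lower in A2780CBNDXL. Its probe A_23_P121898 gave 300, 317, 281 and 206 in this line and 943, 1345, 951 and 922 in the control, with no overlap. The log2 ratio was -1.92 ± 0.25, that is 3.77-fold lower, and the dimmer probe A_23_P213486 was at -2.52 ± 0.97. In A2780CBN the line gave 561, 597, 467 and 492 and the control 738, 573, 606 and 530, which overlapped, with a log2 ratio of -0.20 ± 0.22. PARP4, which is part of the vault particle, stood at 0.65 ± 0.06 on the log2 scale in A2780CBN, above 0 on all 4 arrays, and 0.09 ± 0.05 in A2780CBNDXL. Its AT-rich second probe, A_32_P144342, ranged from 8.04 to 380 in intensity over the channels of A2780CBNDXL and its sign differed between the labelling directions there.

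The levels in the 4 RNA samples were then set side by side, after the channels had been scaled between arrays by the Aquantile method. PARP9 was at a log2 level of 11.35 ± 0.08 in A2780CBN, 9.44 ± 0.37 in A2780CBNDXL, 9.38 ± 0.32 in the control beside A2780CBNDXL and 8.12 ± 0.37 in the control beside A2780CBN. The arrays of A2780CBN were above all others, those of A2780CBNDXL and its control overlapped, and those of the control beside A2780CBN were below all others. DTX3L had the same order but for its middle samples, with 8.70 ± 0.19 in A2780CBN, 6.81 ± 0.32 and 6.70 ± 0.28 in the control beside A2780CBNDXL and in A2780CBNDXL, and 5.81 ± 0.42 in the control beside A2780CBN, where the middle samples overlapped. For PARP14 the order was A2780CBN at 10.12 ± 0.19, the control beside A2780CBNDXL at 8.71 ± 0.07, A2780CBNDXL at 7.69 ± 0.11 and the control beside A2780CBN at 7.28 ± 0.28. The ranges of the first 2 samples overlapped with no other, while A2780CBNDXL, from 7.55, and the control beside A2780CBN, up to 7.55, met.

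**Figure D2:**
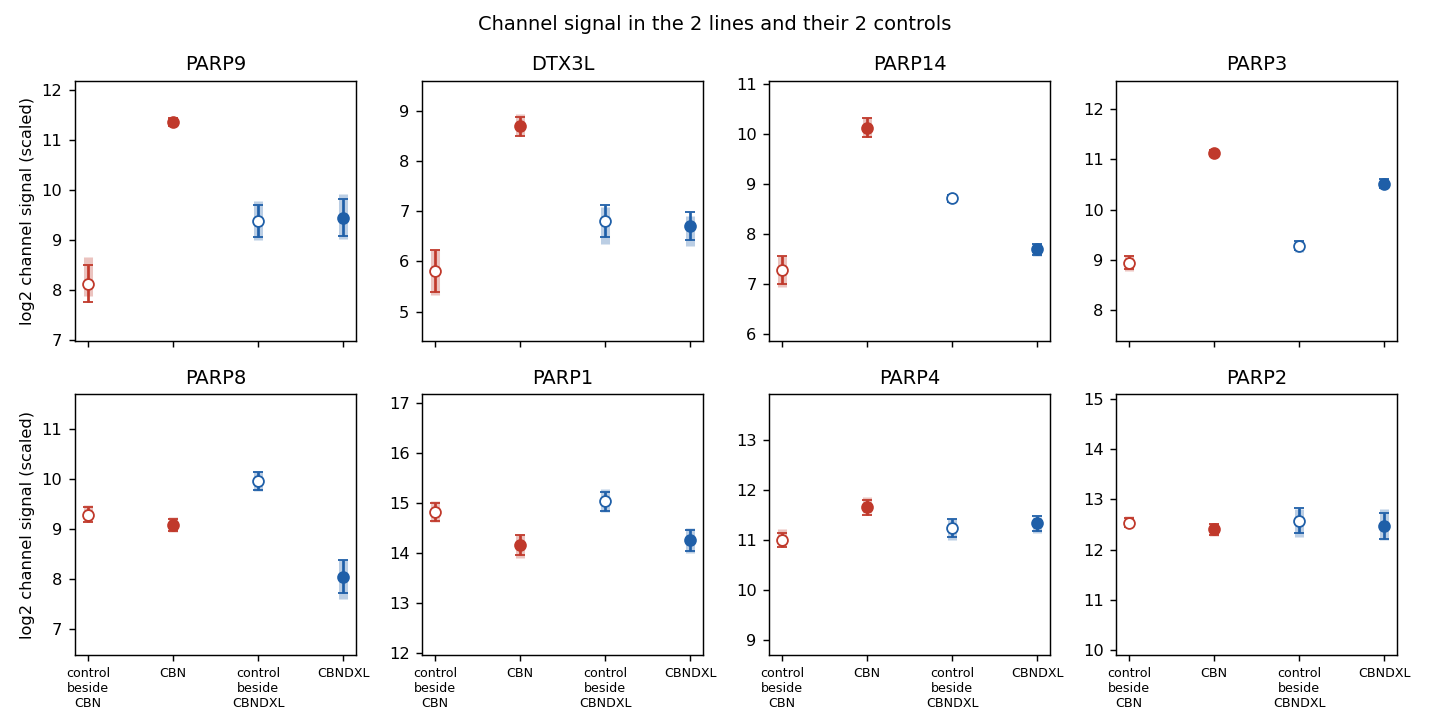
Channel signal on the log2 scale, scaled between arrays by the Aquantile method, of 8 genes in A2780CBN, A2780CBNDXL and their controls (open circles), with the mean and SD in front of a bar from the lowest to the highest of 4 arrays. Each panel spans the same range, and for PARP9, DTX3L and PARP14 the open circles of the controls lie apart from each other.

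The resistant lines were compared directly on arrays matched by slide and labelling. Of 8 members tested, 4 were lower in A2780CBNDXL than in A2780CBN and none was higher, against 9.82% called lower, 6.63% called higher and 16.5% called in either direction of 17082 genes. The differences were -1.91 ± 0.30 for PARP9, -2.0 ± 0.30 for DTX3L, -2.42 ± 0.20 for PARP14 and -1.03 ± 0.34 for PARP8. PARP3 was at -0.61 ± 0.08, lower on all 4 matched pairs and below the limit in size, and PARP1 at 0.10 ± 0.36.

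The controls differed as well. PARP9 and PARP14 were called higher in the control beside A2780CBNDXL than in the control beside A2780CBN, by 1.26 ± 0.46 and 1.42 ± 0.34 on the log2 scale, against 3.33% called higher, 1.35% called lower and 4.68% called in either direction of 16871 genes. With normexp and loess neither was called, and the PARP9 difference was 0.75. With the processed intensities the PARP9 difference was 1.81, 0.75, 1.45 and 1.05 on the 4 matched pairs, and 1.28 on slide 1 and 1.25 on slide 2. DTX3L was at 0.99 ± 0.64 with its brighter probe, just under the limit, and at 1.58 ± 0.57 with A_23_P347040. PARP8 was at 0.68 ± 0.21, PARP3 at 0.33 ± 0.12 and PARP1 at 0.21 ± 0.18. Both controls carry the same name in the labels, and whether their RNA came from cultures of the same passage is not given in the sources used here.

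The choice of control therefore moved some of the ratios. Set against the control of the other line, PARP9 was at 1.97 ± 0.25 in A2780CBN and 1.32 ± 0.50 in A2780CBNDXL, so that it would be called higher in both lines. For PARP14 these ratios were 1.41 ± 0.18 and 0.41 ± 0.35, the sign having turned in A2780CBNDXL. DTX3L was at 1.89 ± 0.25 and 0.88 ± 0.57. PARP3 stayed higher in both lines, at 1.85 ± 0.11 and 1.57 ± 0.12, and PARP8 stayed lower in A2780CBNDXL, at -1.24 ± 0.22, while it was at -0.88 ± 0.12 in A2780CBN. PARP1 was below the control of the other line on all arrays too, at -0.88 ± 0.36 and -0.57 ± 0.18. The part of the controls in the ratios of PARP9, DTX3L and PARP14 in A2780CBNDXL cannot be told apart from that of the line with these arrays alone.

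**Figure D3:**
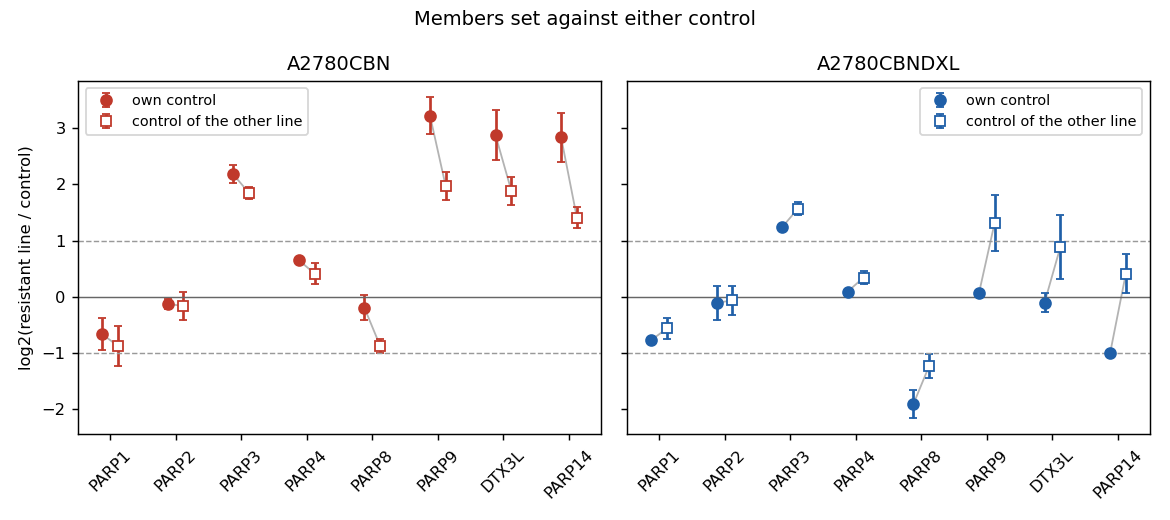
Log2 ratio of 8 genes in each line against its own control (filled circles) and against the control of the other line (open squares), as mean and SD over 4 arrays, with dashed lines at the 2-fold limits. PARP9, DTX3L and PARP14 shift between the controls in both lines, and PARP14 in A2780CBNDXL moves from -1.01 to 0.41.

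Of the 8 other PARP family genes on the array, 7 were tested in each line, and TIPARP was the 1 gene called, lower in A2780CBNDXL. These are 0 of 7 and 1 of 7, beside 12.6% and 16.9% of all genes tested in the respective lines. TIPARP, a target of the aryl hydrocarbon receptor, had a log2 ratio of -2.78 ± 0.19 there, or 6.87-fold lower, and -0.62 ± 0.63 in A2780CBN. TNKS2, which elongates poly(ADP-ribose) chains like its paralog TNKS, was at 0.95 ± 0.29 in A2780CBN and -0.71 ± 0.14 in A2780CBNDXL, with 1 sign on all arrays of each line. The control beside A2780CBNDXL was higher in TNKS2 than the other control by 1.00 ± 0.58. PARP16, a member of the endoplasmic reticulum membrane, was at 0.49 ± 0.19 and -0.67 ± 0.06. TNKS was at 0.55 ± 0.08 and 0.57 ± 0.17, PARP6 at 0.20 ± 0.18 and 0.43 ± 0.17, and PARP11 at 0.20 ± 0.28 and 0.10 ± 0.19. ZC3HAV1, the zinc finger antiviral protein, was at 0.03 ± 0.05 in A2780CBN and 0.54 ± 0.07 in A2780CBNDXL. PARP15, which lies between DTX3L and PARP14, had no channel well above background.

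Genes that bind, remove or supply ADP-ribose were listed as a further group, of which 19 were tested in each line. In A2780CBN, 2 were higher and none was lower, beside 8% and 4.55% of all genes, and with normexp and loess neither was called. DTX1, a Deltex ligase related to DTX3L, was at least 2.6-fold higher, and APLF, a histone chaperone that binds poly(ADP-ribose), was at least 3.65-fold higher, since neither was well above background in the control. In A2780CBNDXL, 2 were higher and 2 lower, beside 7.7% and 9.2% of all genes. DTX3 was higher by 1.63 ± 0.04 and NMNAT1, which makes NAD in the nucleus, by 1.14 ± 0.29. NAMPT, the rate-limiting enzyme of NAD salvage, was at -1.52 ± 0.15, and MACROD2, which removes single ADP-ribose units, at -1.14 ± 0.86, well above background in the line on 1 array. The median log2 ratio of the list was 0.14 in A2780CBN and 0.03 in A2780CBNDXL, where all genes had -0.06 and 0.04.

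Interferons signal through receptors, the kinases JAK1, JAK2 and TYK2, and the factor ISGF3, which holds STAT2 and IRF9 and binds interferon-stimulated response elements. The capitals in the promoters above mark a match of letters to such an element, and binding was not measured. Of 13 genes of this route that were tested, 5 were higher in A2780CBN and none was lower, beside 8% and 4.55% of all genes, and 3 were called with normexp and loess. IRF1 was at 2.86 ± 0.08, IRF9 at 1.71 ± 0.74, STAT2 at 1.67 ± 0.31, USP18 at 1.24 ± 0.12 and JAK1 at 1.11 ± 0.29. In A2780CBNDXL 3 of 13 were lower and none was higher, beside 9.2% and 7.7% of all genes. IRF1 was at -1.81 ± 0.36 and IFNGR1, a chain of the interferon gamma receptor, at -1.31 ± 0.70. SOCS3, an inhibitor of JAK kinases, was at -4.35 ± 0.20. The median log2 ratio of the list was 0.41 in A2780CBN and 0.04 in A2780CBNDXL.

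Of the interferon-stimulated genes listed, 27 of 29 tested were higher in A2780CBN and none was lower, with a median log2 ratio of 2.96, where 8% and 4.55% of all genes were called. In all 34 were measured, and IFI44, IFI44L, IFITM1, MX2 and EPSTI1 were not tested in A2780CBN. OAS1, OAS2, RSAD2, SAMD9, SAMD9L, TRIM22, PSMB8 and XAF1 were tested there through the line alone. Their control was well above background on at most 2 of 4 arrays, so the rule left little room for any call but higher. In A2780CBNDXL 8 of 25 tested were higher and 7 were lower, with a median of -0.11, beside 7.7% and 9.2% of all genes, and 8 in all were called with normexp and loess. Those called lower there were IFIT1 at -2.31 ± 0.04, IFIT2 at -2.63 ± 0.35, IFIT3 at -1.98 ± 0.56, IFIT5 at -1.71 ± 0.08, IFITM1 at -1.44 ± 0.22, DDX60 at -1.30 ± 0.04 and PSMB9 at -1.96 ± 0.08. Those called higher there were OASL at 2.29 ± 0.15, BST2 at 1.51 ± 0.55, MX1 at 1.46 ± 0.42, PSMB8 at 1.19 ± 0.31 and IFI27 at 1.08 ± 0.19. SAMD9, SAMD9L and OAS3, given below, were called higher there as well. The log2 ratios of PARP9, DTX3L and PARP14 in A2780CBN were near the median of 2.96 in that line, which includes the genes tested through the line alone. SAMD9, SAMD9L, OAS3 and XAF1 had the greatest measured ratios of the list in A2780CBN, an order that is not settled for SAMD9 and SAMD9L, whose control was not well above background. SAMD9 was not well above background in either control, and was at least 13.8-fold higher in A2780CBN and at least 16.6-fold higher in A2780CBNDXL. SAMD9L was at least 13.1-fold higher in A2780CBN, and its log2 ratio was 3.39 ± 0.87 in A2780CBNDXL, where its control was well above background on 1 of 4 arrays. OAS3 was at 4.53 ± 0.46 and 1.41 ± 0.13, and XAF1, a regulator of apoptosis, at 4.46 ± 0.33 and 0.56 ± 0.31, its control beside A2780CBN being well above background on 2 of 4 arrays. Of 33 genes of this list with a channel well above background, 15 were at least 2-fold higher in the control beside A2780CBNDXL than in the other control by their mean, with a median difference of 0.81. By the stricter rule of the calls, 3.33% of all genes were higher there, and a share by the mean alone was not computed. In the other lists the mean rule gave 1 of 7 other family genes and 1 of 21 turnover genes. It gave 0 of 13 genes of the interferon receptor route and 1 of 17 neighbours of PARP9.

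**Figure D4:**
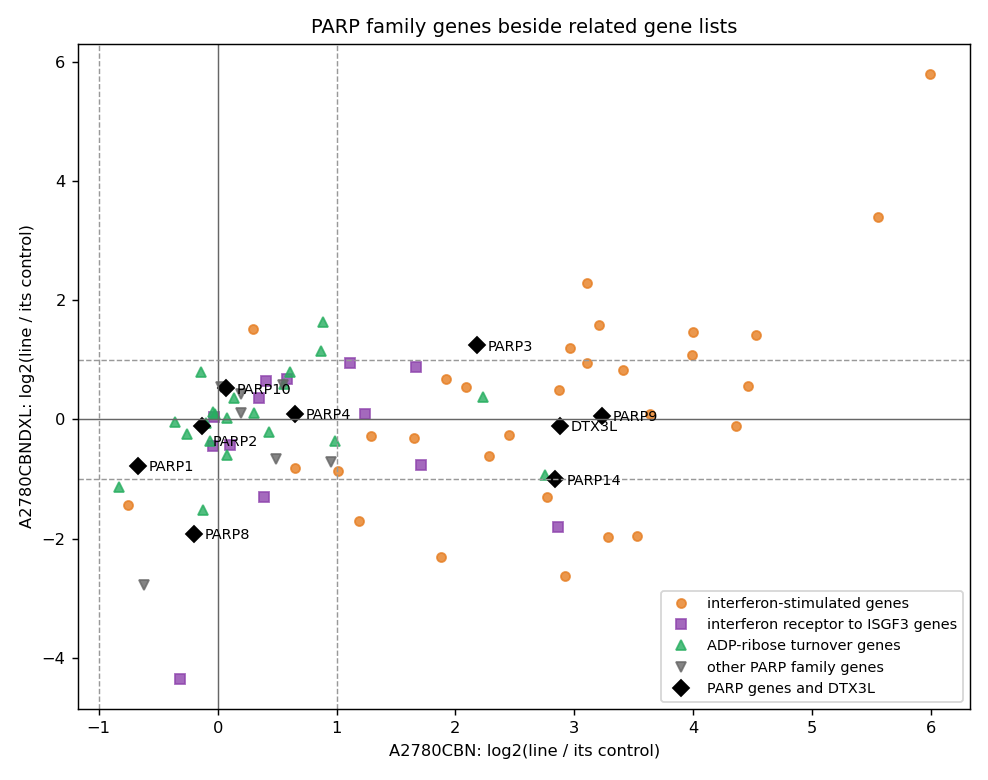
Log2 ratio of each gene in A2780CBN against that in A2780CBNDXL for PARP genes and DTX3L (black diamonds) and 4 related gene lists, for genes tested in at least 1 line, with dashed lines at the 2-fold limits. Points whose control was not above background are plotted at their measured ratio, and PARP9, DTX3L and PARP14 lie at 2.84 to 3.23 on the horizontal axis among the interferon-stimulated genes.

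The genes around PARP9 on chromosome 3 were examined because PARP9, DTX3L and PARP14 are neighbours. The probes of DTX3L and PARP14 lie 45.7 kb and 190.1 kb from that of PARP9, and PARP15, between them, was not well above background. Of 17 other genes tested within 1 Mb in A2780CBN, 1 was higher and 1 lower, beside 8% and 4.55% of all genes, and neither was called with normexp and loess. ADCY5, an adenylyl cyclase 761.3 kb away, was at least 3.32-fold higher, and CCDC58 was at -1.04 ± 0.33. The genes next to the cluster, KPNA1 at -0.36 ± 0.61, WDR5B at 0.35 ± 0.51 and HSPBAP1 at -0.22 ± 0.10, did not pass the limit. In A2780CBNDXL they were at 0.01 ± 0.14, 0.36 ± 0.47 and -0.83 ± 0.22. In this line 5 of 15 were lower and none was higher, beside 9.2% and 7.7% of all genes, and 3 were called with normexp and loess. The median log2 ratio of these neighbours was -0.22 in A2780CBN and -0.83 in A2780CBNDXL. CSTA, a cysteine protease inhibitor, was at least 10.4-fold lower, since the line was not well above background, EAF2 was at -2.63 ± 0.38, FAM162A at -1.76 ± 0.35, CCDC58 at -1.37 ± 0.25 and IQCB1 at -1.26 ± 0.49.

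**Figure D5:**
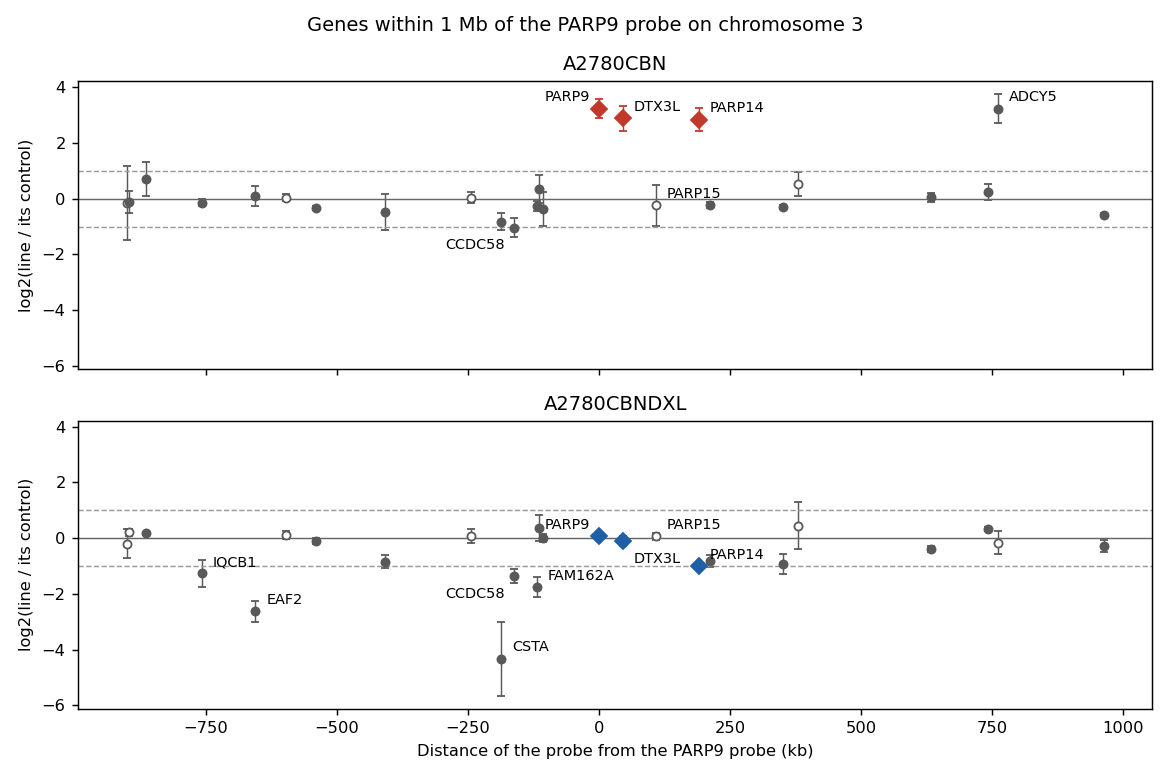
Log2 ratio, with the SD over 4 arrays, of genes within 1 Mb of the PARP9 probe against the distance of their probe in kb, for A2780CBN above and A2780CBNDXL below, with members as diamonds and genes not tested as open symbols. In A2780CBN the 3 members stand at 2.84 to 3.23 and ADCY5 is the other gene above the upper limit, while in A2780CBNDXL PARP14 and 5 other genes lie below the lower limit.

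The genes whose level was most like that of PARP9 were found by Pearson's r over the 16 channels, which come from 4 RNA samples, so that r mainly describes the order of 4 samples and no p is given. Of 17626 genes, 121 (0.686%) had an r of at least 0.9. The 10 highest were ERAP2 (0.987), PPAP2A (0.983), DTX3L (0.977), MYOF (0.977), KANK3 (0.970), XAF1 (0.969), PIK3IP1 (0.967), AHNAK2 (0.965), APOL3 (0.965) and ITM2A (0.963). DTX3L stood at rank 3, PARP14 at rank 171 with 0.88, PARP3 at rank 321 with 0.85 and PARP4 at rank 584 with 0.79. PARP8, PARP2 and PARP1 had an r of -0.07, -0.36 and -0.57. ERAP2, an aminopeptidase that trims peptides for antigen presentation, had log2 ratios of 2.93 ± 0.05 in A2780CBN and -0.21 ± 0.29 in A2780CBNDXL, and levels of 9.35 and 10.55 in the respective controls. MYOF, which acts in membrane repair, was at 2.90 ± 0.03 and 0.34 ± 0.07, with levels of 7.84 and 8.67 in the controls. Like PARP9, both were high in A2780CBN and had a higher level in the control beside A2780CBNDXL than in the other control. This likeness follows from their choice by r over the same channels.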

How the data were processed

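RNA of each resistant line and its control was hybridized together on arrays of 2 colours. The authors deposited the output of Agilent Feature Extraction, versions 10.7.1.1 and 10.7.3.1. In it the processed intensity of each channel is background-subtracted, detrended and normalized for dye, and the probe coordinates are on NCBI36. The deposited mean, background and background-subtracted intensities served alternatives only, and the authors' ratios and p-values in these files were not used. The direction rests on the labels of the forward arrays (control in Cy3, resistant line in Cy5). The reverse arrays were turned over as their name states, although their dye entries repeat those of the forward arrays, and after this log2 ratios of forward and reverse arrays correlated at 0.58 to 0.61 in A2780CBN and 0.73 to 0.74 in A2780CBNDXL over 41000 probes.

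Outlier spots were left out, spots of a probe averaged, ratios averaged per labelling direction before the directions were averaged, and the brightest probe stood for a gene. Levels across arrays were scaled by Aquantile in limma 3.58.1 (R 4.3.3), with arrays matched by slide and labelling. A bound takes the higher of the lowest well-above-background signal and the dim probe's own on each array. The number of arrays limits the precision. Alternatives covered background correction, scaling, filters, probe choice, limits of 1.5-fold and 3-fold, each slide and labelling alone, leaving out each array, and the 3-way ANOVA of the methods (RNA, dye and slide, adjusted p under 0.05 over all genes and 2-fold), whose p covers array error only. The rules were tested on simulated data. The members and gene lists were chosen with earlier results of these data known. All 10 members and all other family genes are named, and of further lists those past 2-fold in either line. Of interferon-stimulated genes the 4 with the greatest size are named and, chosen after their values were seen, the 8 higher and the 7 lower in A2780CBNDXL. The 10 genes most correlated with PARP9 are named too. The A2780DXL arrays were not analysed here, and 1 gene of the interferon receptor list is not reported here.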

Additional observations from a re-analysis of the deposited data

Results flagged for a closer look

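Of the probes of members and other family genes that were tested in both lines, 5 had ratios above 0 on all 4 arrays of A2780CBN and below 0 on all 4 of A2780CBNDXL. For each, the ratio in A2780CBNDXL minus that in A2780CBN is given on the log2 scale, and this difference was not tested. It was -3.85 for PARP14 with A_24_P161018, -3.63 for PARP14 with A_32_P56759 and -3.08 for DTX3L with A_23_P347040. It was -1.16 for PARP16 and -1.66 for TNKS2. These are probes and not genes, so that PARP14 enters again with each probe. DTX3L enters by its dimmer probe only, since the brighter was at 0.02 on array 2 of A2780CBNDXL. By the brightest probe of each gene, PARP14, PARP16 and TNKS2 had this pattern, as did 7.56% of the 16130 genes tested in both lines. A share over all probes was not computed. The level of PARP14 in A2780CBNDXL was above the control beside A2780CBN by 0.41 ± 0.35, as given above, with 0.01 to 0.86 on the matched pairs. No member or other family gene had an array far from the others of its line by the criterion used.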

How the results depend on the processing

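No paired analysis was possible because each line is 1 sample. The 4 members called higher in A2780CBN, PARP3, PARP9, PARP14 and DTX3L, were called in all settings except normexp and loess, which left out DTX3L. The PARP9 ratio there was 2.33 with normexp and loess and 1.97 against the control of the other line, and 3.09 to 3.38 when single arrays were left out. In A2780CBNDXL the count of 3 members fell to 1 with normexp and loess and to 1 at 3-fold, and was 2 to 3 without single arrays, PARP14 losing its call without array 1, on slide 2 alone and with the mean over probes. Against the control of the other line, PARP9 was 1.32 and PARP14 0.41 in A2780CBNDXL. With normexp and loess 2 members differed between the lines and 0 between the controls, and the PARP9 difference was -1.56 between lines and 0.75 between controls. Without single array pairs these counts were 3 to 4 and 2 to 3, and the PARP9 differences -2.01 to -1.81 and 1.17 to 1.35. The normexp setting adds an offset of 50 to every signal, which shrinks the ratios of dim probes, and called 605 genes in A2780CBN and 1174 in A2780CBNDXL where the processed intensities gave 2253 and 2893.

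For the lists, background-subtracted signals called 1 other family gene in A2780CBN against 0 and 1 neighbour of PARP9 against 2. Normexp and loess called 0 ADP-ribose turnover genes, 0 neighbours and 3 genes of the interferon receptor route in A2780CBN, and 2 turnover genes, 8 interferon-stimulated genes and 3 neighbours in A2780CBNDXL. A 1.5-fold limit called 1 of 7 other family genes, 6 of 19 turnover genes and 4 of 17 neighbours in A2780CBN, beside 27.1% of all genes tested. In A2780CBNDXL it called 3 of 7, 8 of 19 and 8 of 15, with 8 of 13 genes of that route, beside 33.3% of all genes tested. The 3-way ANOVA called the same members as the 2-fold rule in each line. Signals near background limit PARP12, PARP15 and the dim probes of PARP4, PARP8 and PARP14.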
